A study of Homo sapiens with 14 samples.

Results

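The genes described here are the 10 that encode the demethylases of lysine 9 and lysine 36 of histone H3 (H3K9 and H3K36) named KDM2A, KDM2B, KDM3A, KDM3B, JMJD1C, KDM4A, KDM4B, KDM4C, PHF2 and PHF8. They were taken by symbol from the 23106 genes counted in each library, and all 10 were present. The rule uses their names and no measured value, although earlier results of these data were known when they were chosen. RNA was measured by RNA-seq of polyadenylated transcripts in PC3, a human prostate cancer cell line grown in DMEM/Ham's F12 medium, and HCT116, a human colorectal cancer cell line grown in McCoy's 5a medium. Cells stayed in normoxia (21% O2) or were kept in hypoxia (0.5% O2) for 16 h. Each condition had 4 replicates of PC3 and 3 of HCT116, which makes 14 libraries. The labels give no transgene or knock-out for either line. Each tissue of origin is represented by a single line, and line, medium and tissue cannot be told apart. The comparisons address how far cells of either line change the transcripts of these enzymes when oxygen, which the enzymes consume, becomes scarce.

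The 10 proteins share the JmjC domain, an iron-dependent dioxygenase fold that removes methyl groups from lysines with molecular oxygen and 2-oxoglutarate as co-substrates. The KDM4 enzymes act on trimethylated H3K9 and H3K36, the KDM3 enzymes on the lower methylation states of H3K9, and the KDM2 enzymes on the lower states of H3K36. PHF2 and PHF8 carry a PHD finger that binds trimethylated H3K4 and remove methyl groups from H3K9. KDM3A and KDM4B are textbook targets of the hypoxia-inducible factors (HIF), which bind short elements with a conserved core in the promoters and enhancers of their targets.

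Total counts lay between 98021966 and 123935458 in normoxic PC3 libraries, between 71228454 and 96159803 in hypoxic PC3 libraries and between 133067391 and 150630928 in HCT116 libraries. Levels are given as CPM, the counts scaled to a common library size after TMM normalisation of all 14 libraries together, and the members held 1498 to 31204 counts per library, far above the 3 counts that a count of 0 allows. Of the prostate luminal markers, KLK3 had 0 counts in all 14 libraries and KLK2 at most 1, while TMPRSS2 reached 16.1 to 50.5 CPM in PC3. Of the colon markers, CDX2 was at 16.2 to 20.9 CPM in HCT116 and 0 in PC3, whereas CDX1 was at 0 throughout. Epithelial markers summed to 2823 to 3959 CPM, leukocyte markers to less than 1 CPM, and fibroblast markers, mostly COL1A1, to 6.78 to 12.6 CPM. All 12 HIF target genes of a fixed list were higher in hypoxia in each line, with median log2 fold changes of 1.52 in PC3 and 2.70 in HCT116, and the 6 genes with the largest change, taking the larger of the 2 lines, were CA9, ANKRD37, PFKFB4, BNIP3, PDK1 and NDRG1.

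Promoter sequences are shown because KDM3A, KDM4B and KDM4C are the members that rose most. The windows are those of RefSeq (GRCh38.p14), 300 bases each, from 250 before to 50 after an annotated start site, and each was located on GRCh37 by a single exact match. The 10 genes have 19 windows. The core of the hypoxia response element was searched for as ACGTG and GCGTG on both strands, so that the palindrome CACGTG counts once on each strand. At least 1 core was found in 11 of the 19 windows, against 48.45% of all 35116 windows of this length. By gene, 7 of the 10 held a core in at least 1 window. Some of them have several windows, and no share by gene was computed over all genes to set beside it. Windows of KDM3B, PHF2 and PHF8 held none. The 250 bases before the start site of KDM4B, which lie outside the annotated gene, and those before KDM4A, a member of the same family that did not pass the test in either line, are printed whole, with the cores in capitals. For KDM3A and KDM4C, the 12 bases on either side of a core are shown.
KDM4B, chr19:4968874-4969123, plus strand: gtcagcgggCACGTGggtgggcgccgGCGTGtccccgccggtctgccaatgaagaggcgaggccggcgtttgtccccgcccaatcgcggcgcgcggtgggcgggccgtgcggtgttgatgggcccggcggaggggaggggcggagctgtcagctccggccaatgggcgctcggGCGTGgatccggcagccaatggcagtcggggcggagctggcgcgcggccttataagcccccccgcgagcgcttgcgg
KDM4A, chr1:44115570-44115819, plus strand: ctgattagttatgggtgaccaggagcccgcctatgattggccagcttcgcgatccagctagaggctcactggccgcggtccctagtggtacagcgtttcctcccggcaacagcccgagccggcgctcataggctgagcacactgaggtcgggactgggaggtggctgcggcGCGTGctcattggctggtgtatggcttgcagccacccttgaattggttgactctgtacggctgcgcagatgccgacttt
KDM3A, chr2:86668456-86668484, plus strand: ccgggaggctgtGCGTGtcttgtgagagc
KDM4C, chr9:6757898-6757927, plus strand: tgtttgtaagccCACGTGactcaccaagtg
KDM4C, chr9:6757930-6757959, plus strand: ggccccagcggtCACGTGacggcgcgcgcg

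The window of KDM4B held 4 core matches, a number reached by 4.397% of all windows, with a CACGTG that begins at -241, counted in bases from the start site, and a GCGTG at -224 and at -77. The window of KDM4C held 5, reached by 1.976% of all windows, from a GCGTG at -96 and a CACGTG at -63 and at -31. KDM3A has 2 overlapping windows that share a single GCGTG, at -26 from start site 1 and at -116 from start site 2, so that this core is counted in both. The KDM4A window held a single GCGTG, at -79. KDM2A held 3 matches in its upstream window, KDM2B at least 1 in each of its 4 windows, and JMJD1C, which did not rise in either line, a CACGTG at -230 in a window. In GENCODE, all 250 bases before the KDM4C start site lie in exons of other transcripts of the same gene. For KDM3A, 99 of the 250 before start site 1 and 173 of those before start site 2 lie in exons of the gene. A match describes letters and not occupancy, and a window without one says nothing about elements elsewhere.

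**Figure D1:**
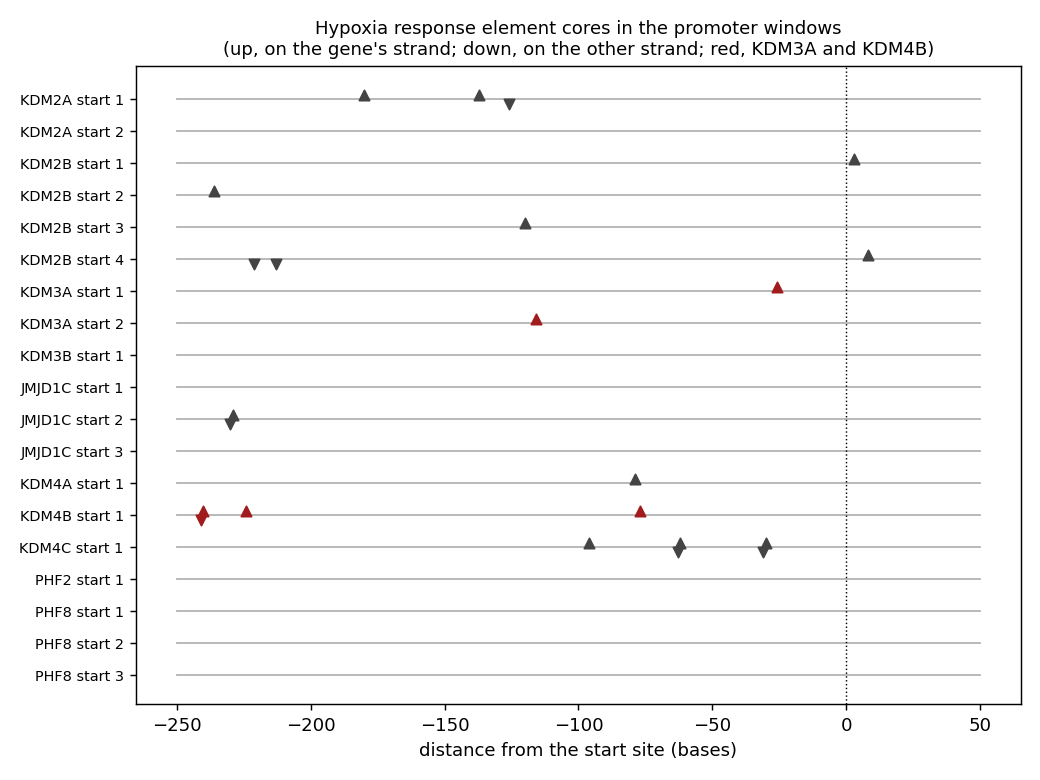
Positions of ACGTG and GCGTG in the 19 RefSeq promoter windows of the 10 genes, in bases from the start site (dotted line), with triangles pointing up for the gene's own strand and down for the other strand. KDM4B and KDM4C hold 4 and 5 matches, KDM2A 3 in a window and KDM4A 1. The 2 overlapping windows of KDM3A share 1 match. JMJD1C holds the 2 of a palindrome, KDM2B at least 1 in each window, and KDM3B, PHF2 and PHF8 none.

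In PC3, 4 of the 10 members rose in hypoxia (KDM2A, KDM3A, KDM4B and KDM4C) and 0 fell, at an adjusted p-value under 0.05 in edgeR's quasi-likelihood test. Over all 14309 genes tested in PC3, 11.3% were called, 6.03% higher and 5.29% lower. In HCT116, 6 members rose (the same 4 with KDM2B and KDM3B) and 0 fell, where 25.9% of 14120 genes were called, 14.6% higher and 11.3% lower. The median log2 fold change of the 10 members was 0.21 in PC3 and 0.23 in HCT116, against 0.00 for all genes in each line. The same members had all hypoxic libraries above all normoxic ones, 4 in PC3, where 9.62% of genes did so, and 6 in HCT116, where 20.3% did. The PC3 libraries pair by replicate number. With the number as a block, 5 members were higher and 1 lower in PC3, but that fit also called 28.5% of all genes, 14.9% higher and 13.6% lower.

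**Figure D2:**
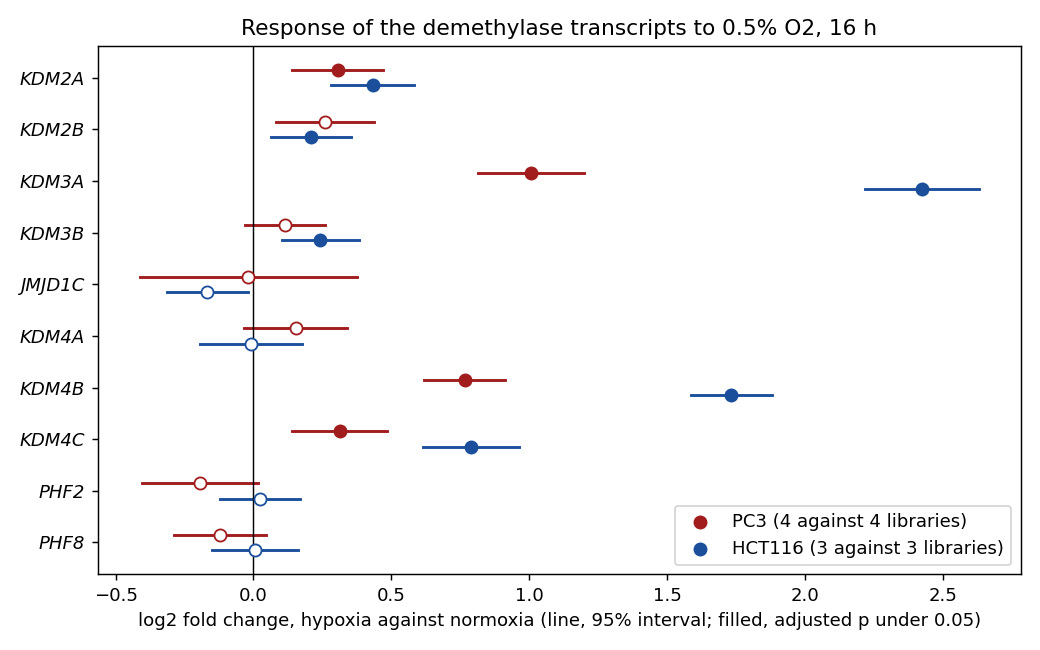
Log2 fold change of each member in hypoxia against normoxia in PC3 (4 against 4 libraries) and HCT116 (3 against 3), with the 95% interval as a line and filled points where the adjusted p-value was under 0.05. KDM3A and KDM4B have the largest rises in both lines. For KDM3A, KDM4B and KDM4C the intervals in PC3 and HCT116 do not overlap, although the difference of KDM4C between the lines did not pass the test.

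The KDM3 family contains the member with the largest rise in both lines. KDM3A, a demethylase of mono- and dimethylated H3K9, lies on chromosome 2 from 86667770 to 86719839. Its level in PC3 was 63.0, 61.9, 54.7 and 64.0 CPM in normoxic replicates 1 to 4 and 108, 140, 120 and 121 CPM in the hypoxic ones. In HCT116 it was 35.7, 41.4 and 33.7 CPM in normoxia and 180, 215 and 193 CPM in hypoxia. All hypoxic libraries stood above all normoxic ones in each line, and the normoxic order of the lines was turned round, since every hypoxic PC3 library lay below every hypoxic HCT116 library. The rise in PC3 was 1.01 on the log2 scale, or 2.01-fold (SE 0.086, adjusted p = 0.000255 in edgeR), and ranked 173 from the top among the log2 fold changes of the 14309 genes tested. In HCT116 it was 2.42, or 5.37-fold (SE 0.094, adjusted p = 1.73e-08, same edgeR test), at rank 31 of 14120. The response was larger in HCT116 by 1.41 on the log2 scale (SE 0.14, adjusted p = 6.04e-05, interaction of line and oxygen in edgeR).

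KDM3B, the paralogue with the same substrates, on chromosome 5 from 137688374 to 137772717, had smaller changes. It was at 66.2 ± 3.19 CPM (SD, n = 4) in normoxic and 71.5 ± 4.65 CPM in hypoxic PC3 cells, and the conditions overlapped (log2 fold change 0.11, 95% interval -0.03 to 0.26, adjusted p = 0.288, edgeR). In HCT116, normoxic libraries were at 142, 137 and 132 CPM and hypoxic ones at 150, 162 and 168 CPM. The 2 conditions did not overlap there, and KDM3B rose by 0.24 (SE 0.064, adjusted p = 0.0178, edgeR). This call was lost without normoxia replicate 2 or hypoxia replicate 2 or 3, with adjusted p-values of 0.0769, 0.0511 and 0.0581 by the same edgeR test.

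JMJD1C, the third KDM3 paralogue, whose own demethylase activity is debated, lies on chromosome 10 from 64926981 to 65281610. Normoxic PC3 libraries were at 234, 239, 226 and 242 CPM. Hypoxic PC3 libraries 1 to 3 were at 260, 264 and 259 CPM, above every normoxic library, and hypoxic replicate 4 was at 142 CPM, below all of them. The log2 fold change was -0.02 with a 95% interval of -0.41 to 0.38 (adjusted p = 0.960, edgeR), the widest of the members. Without hypoxia replicate 4 it was 0.16 (adjusted p = 0.0581, edgeR). That library was also the shallowest, with 71228454 counts, and the part of depth in its JMJD1C level was not tested. It stood apart across genes too, with a mean chi-square per gene of 257, 104 and 142 against hypoxic replicates 1, 2 and 3. Replicates 2 and 3 differed by 15.3, but replicate 1 differed from them by 115 and 99.2. The 20 highest genes held 8.04% of its counts, the most of any PC3 library. In HCT116, JMJD1C was at 82.7, 86.0 and 77.7 CPM in normoxia and 67.2, 75.6 and 74.2 CPM in hypoxia. It was the only member there with all hypoxic libraries below all normoxic ones, as were 22.2% of all genes, but the difference of -0.17 did not pass the test (SE 0.067, adjusted p = 0.0907, edgeR). The responses of the lines differed by -0.16 (95% interval -0.63 to 0.31), and without the PC3 library at 142 CPM by -0.33 (adjusted p = 0.0300, edgeR). JMJD1C shares 483 of its 8758 canonical exon bases with its antisense transcript JMJD1C-AS1. Strandedness of the counting is not stated, so whether reads of the 2 were separated in these bases is not known.

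The KDM4 family held the second largest rise. KDM4B, an enzyme for trimethylated H3K9 and H3K36, lies on chromosome 19 from 4969124 to 5153609. It was at 35.5, 35.1, 34.4 and 38.4 CPM in normoxic PC3 libraries and 59.7, 66.5, 57.8 and 59.2 CPM in hypoxic ones. In HCT116 its level was 26.2, 23.5 and 24.0 CPM in normoxia and 76.7, 82.6 and 82.7 CPM in hypoxia. As for KDM3A, the conditions did not overlap in either line, and hypoxic PC3 libraries all lay below hypoxic HCT116 libraries although the normoxic ones all lay above. The rise was 0.77 in PC3, or 1.70-fold (SE 0.065, adjusted p = 0.000249, edgeR), and 1.73 in HCT116, or 3.32-fold (SE 0.067, adjusted p = 1.80e-08, edgeR). The difference of 0.95 between the lines passed the test (SE 0.099, adjusted p = 7.77e-05, interaction in edgeR).

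KDM4C, on chromosome 9 from 6720863 to 7175648, acts on the same marks. Normoxic PC3 libraries were at 19.0, 18.5, 17.8 and 19.6 CPM and hypoxic ones at 25.7, 22.6, 22.0 and 22.3 CPM. HCT116 libraries were at 18.7, 19.8 and 16.6 CPM in normoxia and 29.0, 33.3 and 31.8 CPM in hypoxia. The normoxic libraries of the lines overlapped, whereas every hypoxic HCT116 library stood above every hypoxic PC3 library. KDM4C rose by 0.31 in PC3, or 1.24-fold (SE 0.077, adjusted p = 0.0314, edgeR), and by 0.79 in HCT116, or 1.73-fold (SE 0.079, adjusted p = 5.36e-05, edgeR). The difference between the lines was 0.46 (95% interval 0.22 to 0.71) and just missed the threshold (adjusted p = 0.0515, edgeR). With the replicate number as a block it was 0.47 and passed (adjusted p = 0.0159, edgeR).

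KDM4A, on chromosome 1 from 44115820 to 44171189, has the substrates of KDM4B and KDM4C but did not pass the test in either line. It was at 50.0 ± 5.41 and 55.4 ± 3.94 CPM (SD, n = 4) in normoxic and hypoxic PC3 cells and at 51.2 ± 3.16 and 50.4 ± 5.76 CPM (SD, n = 3) in HCT116. The log2 fold change was 0.15 in PC3 (95% interval -0.03 to 0.34, adjusted p = 0.266, edgeR) and -0.01 in HCT116 (95% interval -0.19 to 0.18, adjusted p = 0.956, edgeR). All 4 paired PC3 differences were above 0, between 0.04 and 0.22, and the blocked adjusted p-value was 0.0503 in edgeR. KDM4A shares 473 exon bases with its antisense transcript KDM4A-AS1 and 2086 with a protein-coding gene that GENCODE annotates on the same strand and that has no count of its own here, so its counts are uncertain.

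The KDM2 enzymes carry a CXXC zinc finger that binds CpG islands. KDM2A, on chromosome 11 from 66886734 to 67025553, was at 201, 190, 186 and 186 CPM in normoxic PC3 libraries and 254, 236, 232 and 217 CPM in hypoxic ones. In HCT116 it was at 98.6, 90.3 and 90.6 CPM in normoxia and 120, 119 and 135 CPM in hypoxia. KDM2A shares 323 exon bases with an antisense transcript. All hypoxic libraries were above all normoxic ones in each line, and PC3 stood above HCT116 under either condition, with a fold of 2.02 in the normoxic comparison and a ratio of the hypoxic means of 1.89. The rise was 0.31 in PC3 (SE 0.074, adjusted p = 0.0290, edgeR) and 0.43 in HCT116 (SE 0.069, adjusted p = 0.00125, edgeR), with a difference of 0.12 between the lines (95% interval -0.10 to 0.33). In PC3 the calls of KDM2A and KDM4C were both lost without normoxia replicate 2, 3 or 4 or without hypoxia replicate 1 or 2, with adjusted p-values of 0.0508 to 0.110 in edgeR. In HCT116 both stayed past the threshold without any single library. With the PC3 block, the adjusted p-values were 0.00419 for KDM2A and 0.00858 for KDM4C by the same edgeR test.

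KDM2B, which brings the variant polycomb complex PRC1.1 to CpG islands, lies on chromosome 12 from 121866899 to 122018928. PC3 libraries ranged from 51.8 to 58.1 CPM in normoxia and from 57.3 to 73.7 CPM in hypoxia, and overlapped only through hypoxia replicate 1. HCT116 libraries were at 59.0 to 64.9 CPM in normoxia and 66.8 to 74.7 CPM in hypoxia, without overlap. The log2 fold change was 0.26 in PC3 (SE 0.079, adjusted p = 0.0661, edgeR), and with the block 0.25 and past the threshold (adjusted p = 0.0142, edgeR). In HCT116 it was 0.21 (SE 0.066, adjusted p = 0.0395, edgeR), a call that was lost without any of normoxia replicates 1 to 3 or hypoxia replicates 1 and 3, with adjusted p-values of 0.0573 to 0.164 in edgeR. KDM2B shares 439 exon bases with RNF34 on the opposite strand, so part of its counts is uncertain.

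PHF2, on chromosome 9 from 96338866 to 96441869, and PHF8, on the X chromosome from 53963109 to 54075391, had log2 fold changes at or below 0.02 in both lines. PHF2 was at 37.5, 34.7, 38.1 and 35.1 CPM in normoxic PC3 libraries and 35.1, 31.4, 33.4 and 26.6 CPM in hypoxic ones. Each hypoxic library lay below the normoxic one of the same number, and the log2 fold change was -0.19 (SE 0.093, adjusted p = 0.210, edgeR). With the block it was -0.20 and PHF2 fell (adjusted p = 0.0429, edgeR), the single member to do so. Its paired difference was -0.40 for number 4, whose hypoxic library was the one low for JMJD1C, and -0.19 to -0.10 for the others, and without that library the unblocked log2 fold change was -0.12. In HCT116, PHF2 was at 33.5 to 34.8 CPM in normoxia and 32.8 to 37.2 CPM in hypoxia (log2 fold change 0.02, 95% interval -0.12 to 0.17). PHF8, which also acts on monomethylated H4K20, was at 56.3 to 68.5 CPM in normoxic and 52.4 to 60.4 CPM in hypoxic PC3 libraries (log2 fold change -0.12, adjusted p = 0.323, edgeR, and 0.103 with the block). In HCT116 it was at 32.0 to 35.1 and 30.6 to 35.7 CPM (log2 fold change 0.01, 95% interval -0.15 to 0.16).

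**Figure D3:**
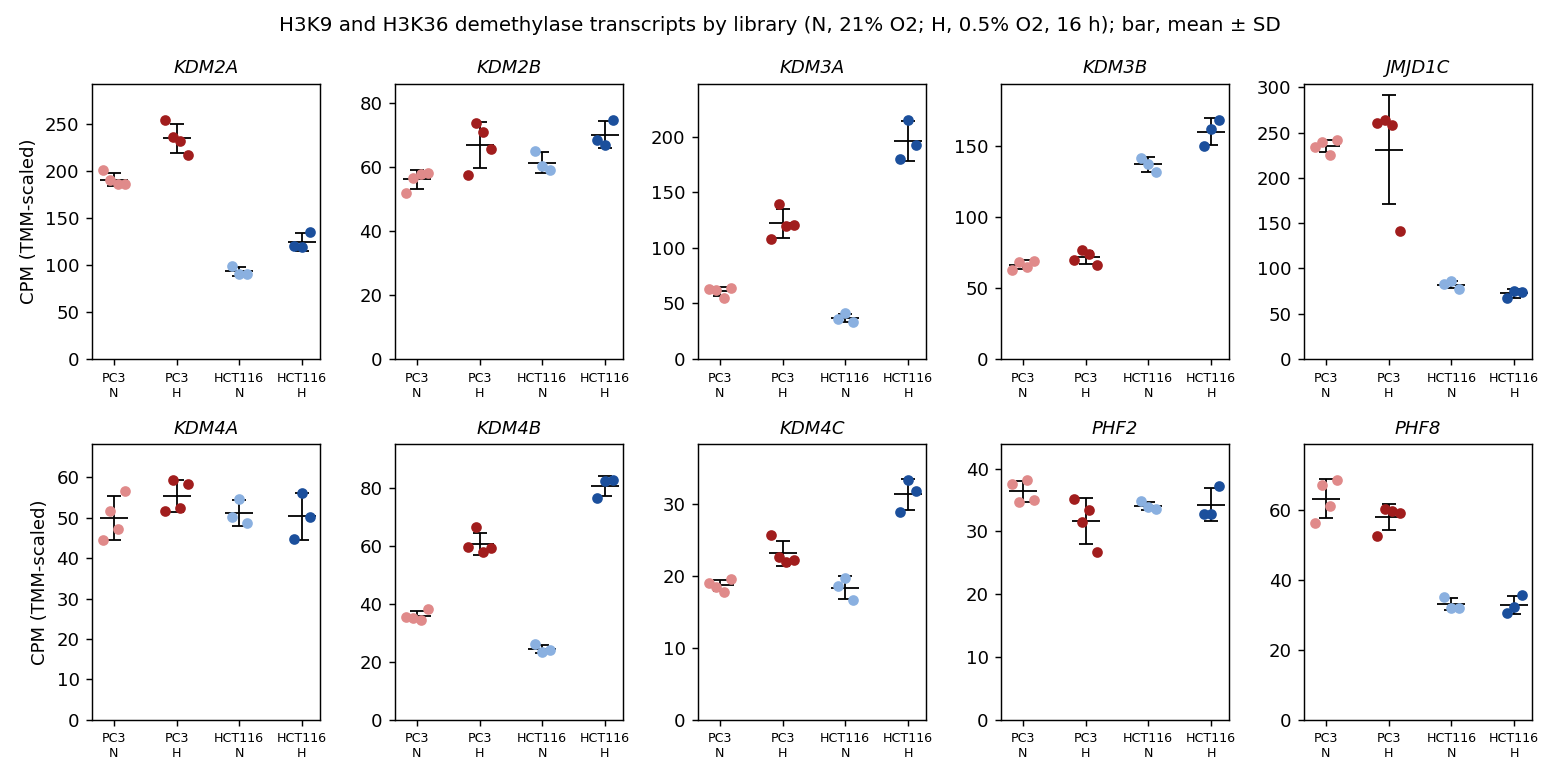
Level of each member in every library in CPM after TMM scaling (linear axes from 0), with points for the libraries of PC3 and HCT116 in normoxia (N) and hypoxia (H) and bars for the mean ± SD. KDM3A and KDM4B stand higher in PC3 than in HCT116 in normoxia and lower in hypoxia, and the low JMJD1C point in hypoxic PC3 is replicate 4 at 142 CPM.

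Of the 10 responses, 2 differed between the lines past the threshold, those of KDM3A and KDM4B, both larger in HCT116. Over all 15493 genes tested for the interaction, 2.32% were called, 1.31% in that direction and 1.01% in the other. With the replicate number as a block there were 3 members, KDM4C being added, where 8.43% of genes were called, 4.58% larger in HCT116 and 3.85% smaller. The larger response in HCT116 was not particular to these members. Of the 12 HIF target genes, 6 were called larger in HCT116 without the block and 10 with it, and 0 smaller in either fit. Their median difference was 1.09 on the log2 scale without the block. The other 7 members had differences between -0.17 and 0.21 on the log2 scale, none of them past the threshold in either fit.

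Abundance in normoxia differed between the lines for most members. PC3 had more of 5 (JMJD1C, KDM2A, PHF8, KDM3A and KDM4B) and less of 2 (KDM3B and KDM2B), but 83.4% of all 15206 genes tested differed between the lines, 42.9% higher and 40.5% lower in PC3. The same 5 and 2 had libraries of the lines that did not overlap, as did 42.9% of genes with PC3 above and 40.0% with PC3 below. JMJD1C was higher in PC3 by 1.50 on the log2 scale, or 2.82-fold (SE 0.059, adjusted p = 1.21e-08, edgeR), and KDM2A by 1.01 (SE 0.063). PHF8 was higher by 0.92 (SE 0.076), KDM3A by 0.70 (SE 0.087) and KDM4B by 0.53 (SE 0.066), with adjusted p-values in edgeR of at most 4.29e-05. KDM3B was lower in PC3 by 1.07, with a log2 fold change of -1.07 (SE 0.054, adjusted p = 6.18e-08, edgeR). The -0.15 of KDM2B (adjusted p = 0.0378, edgeR) was lost under 6 of the alternatives and when any library other than HCT116 normoxia replicate 3 was left out. KDM4A (-0.06), KDM4C (0.01) and PHF2 (0.07) did not pass the test. With total-count scaling PHF2 was higher in PC3 by 0.17 (adjusted p = 0.0295, edgeR).

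To compare genes within a library, CPM was divided by the length in kilobases of the Ensembl canonical transcript. In normoxic PC3 cells JMJD1C (26.8 CPM per kb) and KDM2A (25.8) led and overlapped each other, and KDM3A (13.05), KDM4A (11.1), KDM2B (10.5), PHF8 (9.95) and KDM3B (9.85) followed, each overlapping the next. PHF2 (6.74) and KDM4B (6.40) also overlapped, and KDM4C (4.31) was below all others. In hypoxic PC3 cells, KDM2A (31.8), JMJD1C (26.4) and KDM3A (26.1) overlapped at the top. In normoxic HCT116 cells, KDM3B led with 20.4 CPM per kb and KDM4B (4.38) and KDM4C (4.24) overlapped at the bottom. In hypoxic HCT116 cells, KDM3A was first with 42.0 CPM per kb, ahead of KDM3B with 23.8 and with no overlap, and KDM4B was at rank 4 with 14.4, overlapping KDM2B. These positions depend on the length used. With the union of all exons, chosen after seeing the data, KDM3B (20.3) stayed ahead of KDM3A (14.7) in hypoxic HCT116 cells and KDM4B was at rank 7 (5.48).

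The make-up of the KDM3 and KDM4 families, on the same scale of CPM per kb, differed between the conditions and is given as a description. Here the KDM3 family means KDM3A, KDM3B and JMJD1C, and the KDM4 family means KDM4A, KDM4B and KDM4C. The shares leave out KDM4D, at 6.30 and 6.78 CPM in normoxic and hypoxic PC3 cells. They also leave out HR, a relative of the KDM3 enzymes, at 47.1 and 87.8 CPM there. KDM3A made up 26.2% ± 1.02 (SD, n = 4) of the KDM3 transcripts in normoxic PC3 cells and 41.8% ± 5.84 in hypoxic ones, and 21.0% ± 1.49 (SD, n = 3) and 56.7% ± 1.69 in HCT116. The share of KDM3B in HCT116 went from 54.1% ± 1.69 to 32.2% ± 1.49, and that of JMJD1C in PC3 from 54.0% ± 0.48 to 41.3% ± 7.01, with hypoxia replicate 4 lowest at 31.2%. With the union of all exons the KDM3A shares were lower, 13.4% and 24.0% in PC3 and 10.1% and 35.4% in HCT116, where KDM3B stayed ahead in hypoxia with 49.0%. Among the KDM4 transcripts, KDM4B went from 29.3% ± 1.07 to 38.0% ± 0.96 in PC3 and from 21.9% ± 1.68 to 43.9% ± 1.54 in HCT116. KDM4A went from 50.9% ± 2.10 to 43.3% ± 1.76 in PC3 and from 57.0% ± 1.38 to 34.1% ± 1.56 in HCT116. KDM4B thus passed KDM4A in hypoxic HCT116 cells only, and the library ranges, 42.2% to 45.1% and 32.8% to 35.8%, did not overlap. With the union of all exons, KDM4A kept the larger share there, 53.2% against 30.1%. The sum of all 10 members was 125 ± 3.65 CPM per kb in normoxic and 151 ± 10.9 in hypoxic PC3 cells, and 93.4 ± 3.57 and 148 ± 8.45 in HCT116. On this length, the hypoxic sums of the lines overlapped, while the normoxic ones did not. The sums depend on the length used, and none was computed with the union of all exons.

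**Figure D4:**
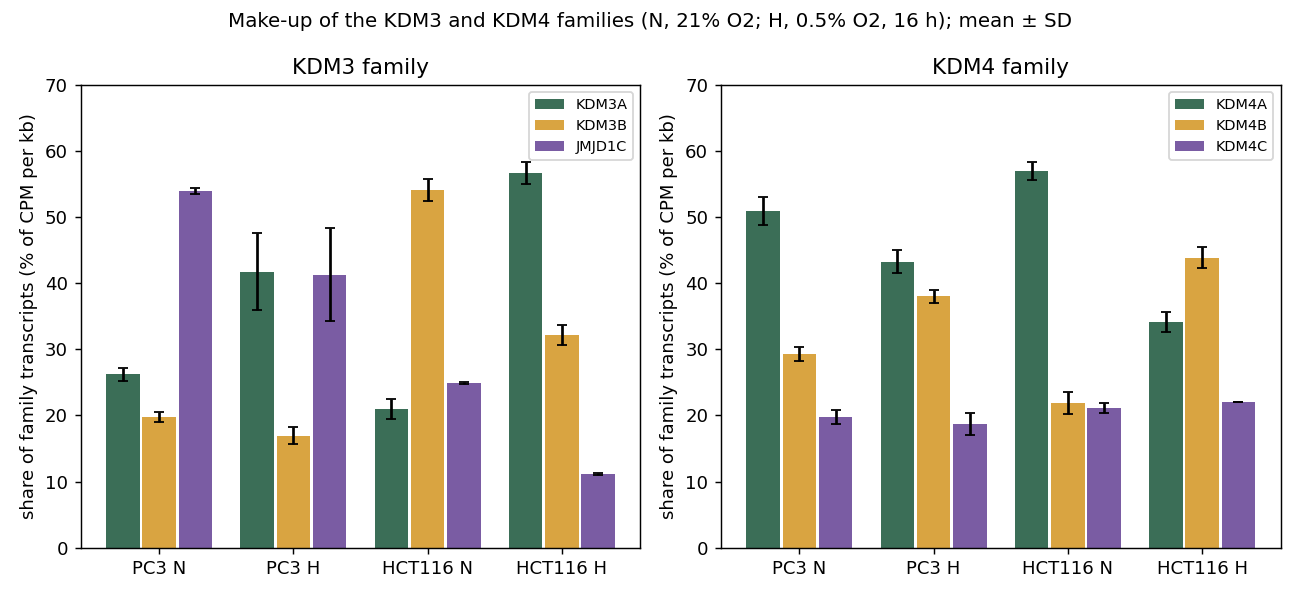
Share of each member in the KDM3 and KDM4 transcripts of a library, in percent of the family's CPM per kb of canonical transcript, as mean ± SD over 4 PC3 or 3 HCT116 libraries in normoxia (N) and hypoxia (H). Each family holds only the members shown, without HR or KDM4D. KDM3A rises from 21.0% to 56.7% of the KDM3 family and KDM4B from 21.9% to 43.9% of the KDM4 family in HCT116 (10.1% to 35.4% and 12.5% to 30.1% with the union of all exons).

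Other enzymes and readers of the same marks are given by the number called, to be read against the 11.3% of all genes called in PC3 (6.03% higher, 5.29% lower) and the 25.9% called in HCT116 (14.6% higher, 11.3% lower). Of 12 further JmjC proteins and H3K9 or H3K36 demethylases, 11 were tested, with 3 calls in PC3, all higher, and 4 in HCT116, of which 1 was lower, and with median log2 fold changes of 0.07 and 0.19. The largest change among them was that of HR, the hairless protein and a relative of the KDM3 enzymes, with 47.1 ± 8.50 and 87.8 ± 8.88 CPM in normoxic and hypoxic PC3 cells (log2 fold change 0.90, SE 0.12, adjusted p = 0.00293, edgeR). In HCT116, HR rose by 0.52 (SE 0.12, adjusted p = 0.00792, edgeR), from 23.2 ± 3.28 to 32.9 ± 4.87 CPM. KDM4E had at most 1 count in any library and was not tested.

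Of 14 H3K9 and H3K36 methyltransferases, which add the marks that the members remove, 2 fell and 1 rose in PC3, 2 rose and 0 fell in HCT116, and the median log2 fold changes were -0.12 and -0.02. Among the 14, EHMT2 was close to the floor, with 0 to 167 counts in normoxic and 0 to 34 in hypoxic PC3 libraries. In HCT116 it had 15 to 179 and 4 to 72 counts. Its log2 fold change in PC3, -1.25 with an SE of 1.31, is therefore uncertain, and the cause of the low counts was not tested. Of 13 readers of the H3K9 and H3K36 marks, 1 rose in PC3 and none fell, and 1 rose and 1 fell in HCT116, with medians of -0.01 and 0.01. CBX5, which encodes the H3K9me3 reader HP1 alpha, was the reader higher in both. It stood at 151 ± 5.80 and 178 ± 8.64 CPM in normoxic and hypoxic PC3 cells (log2 fold change 0.25, adjusted p = 0.0456, edgeR) and at 155 ± 2.40 and 255 ± 19.4 CPM in HCT116 (log2 fold change 0.73, adjusted p = 2.59e-05, edgeR). The rise was larger in HCT116 by 0.48 (SE 0.094, adjusted p = 0.0149, interaction in edgeR). Of the 10 genes for PRC1.1 subunits and ARID5B, the partner of PHF2, 9 were tested, of which 1 rose and 1 fell in PC3, while 2 rose and 2 fell in HCT116, none by 0.5 or more on the log2 scale, and the medians were 0.09 and 0.04. RING1, with 0 to 4 counts per library, was not tested.

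Across the 14 libraries, the gene whose log2 CPM was most like that of KDM3A, among the 11198 genes whose mean reached 1 CPM in both lines, was KDM4B (Pearson's r = 0.991), followed by RNMT (0.975) and FAT4 (0.973). For KDM4B they were KDM3A (0.991), AK4 (0.975) and PFKFB4 (0.973). These values describe 14 libraries that fall into 4 groups and share those groups' means. KDM3A and KDM4B had the same order of the 4 groups, lowest in normoxic HCT116 cells, then normoxic PC3, hypoxic PC3 and hypoxic HCT116 cells. RNMT, FAT4, AK4 and PFKFB4 had this order too, and its share over all genes was not computed.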

How the data were processed

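Polyadenylated RNA of 14 libraries was compared. Per the submitters' processing notes and the methods, the authors aligned reads with HISAT2 (2.05) to GRCh37 after removal of ERCC spike-in reads and counted them on RefSeq genes with HTSeq (0.5.4p3) in intersection-strict mode. The deposited values are raw read counts per gene. The RefSeq release and the strandedness of counting are not given in the sources used here. HTSeq's summary lines and the ERCC counts were not used.

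Counts were analysed with edgeR 4.0.16 in R 4.3.3 (filterByExpr, TMM, quasi-likelihood test, two-sided, Benjamini-Hochberg over all genes tested, threshold 0.05) for hypoxia against normoxia in each line, for the interaction over all 14 libraries, and for PC3 against HCT116 in normoxia. The standard error is the log2 fold change over the square root of F. TMM takes most genes as unchanged, so shifts of total mRNA are not visible. The code was tested on simulated counts. The PC3 libraries pair by number: normoxic and hypoxic libraries of numbers 1 to 4 deviated together across genes, with correlations of 0.832, 0.523, 0.345 and 0.413. The highest correlations with another number were -0.234, 0.302, 0.164 and 0.36, so the pairing of number 4 was weak. Replicates are separate libraries, and p-values measure the spread between them. The intervals of the log2 fold changes rest on the standard error defined above, so they too include that spread. Floors from counts cover counting error only.

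The members and gene lists were chosen with earlier results of these data known. All members are named. Genes of the lists are named where they passed the threshold in a line and their log2 fold change was 0.5 or more in size (up to 6 per list) or were not tested, and genes like KDM3A and KDM4B are the 3 with the highest correlation. CBX5 in PC3 is given beside its HCT116 value. EHMT2 is named for its low counts and KDM4D as left out of the KDM4 shares. Marker genes are given as CPM ranges. Some marker genes are not reported here. Alternatives were scaling by total count, upper quartile or median of ratios, DESeq2 1.42.0, no filter, at least 10 counts in every library, a single fit over both lines, the replicate block and each library left out. The union exon length and leaving out both PC3 libraries of number 1 or of number 4 were added after seeing the data. Positions and lengths came from GENCODE v44 mapped to GRCh37.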

Additional observations from a re-analysis of the deposited data

Results flagged for a closer look

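In hypoxic PC3 cells, the JMJD1C level of replicate 4 was 142 CPM, against 259 to 264 CPM in the other 3 libraries, a gap larger than Dixon's limit for 4 samples. The PHF8 level of hypoxic PC3 replicate 1, at 52.4 CPM, was likewise set apart from the 59.2 to 60.4 CPM of the others. Of 20 groups of 4 PC3 libraries examined in this way, 2 held such a value, and chance gives about 1 in 20, or 1. For PHF8, normoxic PC3 replicate 1 was also the lowest of its group, at 56.3 CPM against 61.2 to 68.5 CPM. The response to hypoxia differed between the lines for KDM3A, larger in HCT116 by 1.41 on the log2 scale, and for KDM4B, larger by 0.955, both past the threshold of edgeR's interaction test.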

How the results depend on the processing

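The rises of KDM3A and KDM4B, and their differences between the lines, stayed past the threshold, in the same direction, under all alternatives run. All members had over 1000 counts in every library. With total-count scaling, the median log2 fold change over all genes was -0.10 in PC3 and -0.09 in HCT116 and to 0.13 for PC3 against HCT116, against 0.00, 0.00 and 0.03 with TMM. The share of higher genes among those called in PC3 went from 53.3% to 24.5% with it and to 39.4% with upper-quartile scaling, and in HCT116 from 56.3% to 29.0%. For the interaction it went from 56.5% to 70.7% with upper-quartile scaling.

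In PC3, 863 genes were higher and 757 lower. Total-count scaling gave 562 and 1733 (2 members higher), DESeq2 1392 and 1209, the replicate block 2125 and 1949 (1 member lower), and a single fit over both lines 1246 lower. Leaving out single libraries gave 364 to 1143 genes higher, 189 to 942 lower and 2 to 4 members higher. In HCT116, with 2061 higher and 1597 lower, total-count scaling gave 1286 and 3146 (1 member lower, JMJD1C at -0.26), and a single fit 938 and 795. Leaving out single libraries gave 4 to 5 members higher, instead of 6, and 0 to 1 lower. For the interaction, with 203 and 156 genes, DESeq2 gave 504 and 470, the block 710 and 596, and single libraries left out 94 to 423 and 78 to 294, with 0 to 1 member lower. Between the lines in normoxia, 1 member instead of 2 was lower in PC3 under median-of-ratios and total-count scaling, DESeq2, no filter, the block and a single fit, and 1 to 2 without single libraries, KDM2B being lost. The cause was not tested. In this comparison the block joins PC3 and HCT116 libraries by replicate number alone.

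KDM2B in PC3 passed the threshold with DESeq2 (adjusted p = 0.0246) and a single fit (0.0379), while in HCT116 it did not with the block (0.0509), a single fit (0.189) or median-of-ratios (0.0523), total-count (0.282) or upper-quartile scaling (0.0546). Total-count scaling also ended the calls of KDM2A and KDM4C in PC3 (adjusted p = 0.108 and 0.110) and of KDM3B in HCT116 (0.1495, edgeR), the last also lost in a single fit (0.0647). The difference of KDM4C between the lines passed with DESeq2 (adjusted p = 0.00787), upper-quartile scaling (0.0418) and at least 10 counts in every library (0.0434, edgeR). The HCT116 numbers 1 and 3 do not pair the libraries, while number 2 does. Their correlations were 0.0664, 0.373 and -0.0751 for numbers 1 to 3, and the highest with another number were 0.202, -0.113 and 0.158. The block changed the calls of KDM2B and PHF2 in PC3, of KDM2B in HCT116 and between the lines, and of the KDM4C difference in response. It changed no other call of a member.

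Only log2 fold changes that were not past the threshold turned round. JMJD1C in PC3 was -0.088 to 0.16 without single libraries, the highest without hypoxia replicate 4, and 0.17 without both libraries of number 4. PHF8 in HCT116 was -0.0039 with median-of-ratios scaling and DESeq2, -0.0028 with upper-quartile and -0.085 with total-count scaling, -0.0091 in a single fit and between -0.049 and 0.049 without single libraries. PHF2 in HCT116 was -0.068 with total-count scaling and -0.031 to 0.055 without single libraries, and KDM4A there -0.095 to 0.065. Between the lines, KDM4C was -0.033 with upper-quartile scaling, -0.0083 with the block and -0.061 to 0.060 without single libraries, and KDM4A 0.043 with total-count scaling.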
